A study of Homo sapiens with 12 samples.

Results

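The Kruppel-like factors (KLFs) are DNA-binding proteins with 3 zinc fingers at the carboxyl end, which bind GC boxes and CACCC boxes. The 10 members described here were taken by gene symbol, *KLF2*, *KLF4*, *KLF5*, *KLF6*, *KLF7*, *KLF9*, *KLF10*, *KLF11*, *KLF13* and *KLF15*, from a table of 21893 genes. Their transcripts were measured by RNA-seq in CCD-18Co cells, an established line of human myofibroblasts from normal colon, contractile stromal cells found beneath the gut epithelium. Cells received vehicle (ethanol and albumin in buffered saline), 100 nM 1,25(OH)2D3 (the active vitamin D metabolite), 100 ng/ml recombinant Wnt3A (a canonical Wnt ligand) or both for 24 h. Each of the 4 groups had 3 libraries, 1 from each of 3 independent experiments, so 12 in all. The cells are 1 line, so the replicates are repeated cultures and not donors.

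KLFs differ mainly outside the zinc fingers. *KLF2*, *KLF4*, *KLF5*, *KLF6* and *KLF7* form a group of mostly activating factors that recruit acetyltransferases, whereas *KLF9*, *KLF10*, *KLF11* and *KLF13* bind the corepressor SIN3A. *KLF15* was left outside both groups here. In the intestine *KLF5* is known for the dividing crypt epithelium and *KLF4* for differentiated epithelium. In stromal cells several members respond quickly to serum, hormones and TGF-β, and *KLF9* and *KLF15* are well-described glucocorticoid targets.

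Libraries held 5363668 to 6261100 reads. These are read equivalents: in each library 78.2% to 80.9% of the low deposited values (1 to 400) could be divided by the read length of 40 bases without a remainder, so all values were divided by 40 and rounded. Levels are given as CPM, reads per 1000000 reads of the library total after edgeR's TMM scaling. Both agents acted in the libraries labelled with them. *CYP24A1*, which encodes the enzyme that degrades 1,25(OH)2D3, was at 0 to 0.665 CPM without and at 194 to 307 CPM with 1,25(OH)2D3. *AXIN2*, a Wnt feedback gene, was at 1.91 to 3.07 CPM without and 16.5 to 23.6 CPM with Wnt3A. All 10 fibroblast markers were detected, with a summed level of 24200 to 27900 CPM. Of the markers of other cell types, 2 of 8 epithelial, 2 of 6 endothelial and 2 of 6 leukocyte genes passed the filter on low counts. *EPCAM* had 6 reads in the 12 libraries together, *PTPRC* 7 and *PECAM1* 8. The markers with more reads were *KRT18* (24.2 to 34 CPM), *TEK* (8.98 to 16 CPM), *VWF* (2.12 to 9.76 CPM), *CD14* (6.75 to 19 CPM) and *CD68* (165 to 204 CPM).

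In vehicle-treated cells *KLF6* was the most abundant member and *KLF15* was barely detected. Levels were compared between genes as CPM per kilobase of the Ensembl canonical transcript. On that scale the vehicle levels were 44.6 ± 0.495 for *KLF6* (SD, n = 3, as for all levels below), 29.6 ± 0.751 for *KLF10* and 12.4 ± 0.859 for *KLF5*. The next were 10.6 ± 0.729 for *KLF13*, 6.98 ± 0.102 for *KLF11* and 4.85 ± 0.288 for *KLF9*. The libraries of neighbouring genes did not overlap down to *KLF2*, at 1.91 ± 0.211 CPM per kilobase. *KLF4* (0.931 ± 0.31) and *KLF7* (0.685 ± 0.198) overlapped each other, with ranges of 0.623 to 1.24 and 0.457 to 0.803. *KLF15* was at 0.156 ± 0.173 CPM per kilobase and had no read in 1 of the 3 vehicle libraries. The treated groups kept *KLF6* and *KLF10* at the top. With 1,25(OH)2D3 alone the libraries of *KLF11* (8.5 ± 0.203) fell within the range of *KLF13* (8.26 ± 1.85), and those of *KLF7* (0.973 ± 0.097) overlapped *KLF4* (0.651 ± 0.195) from above. With both agents *KLF7* (1.04 ± 0.12) also reached *KLF2* (1.03 ± 0.209).

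**Figure D1:**
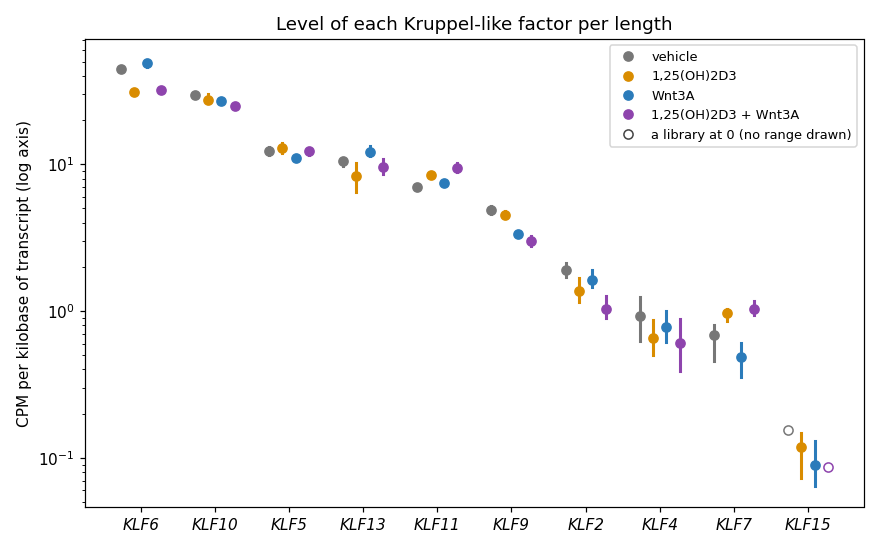
Mean CPM per kilobase of transcript (log axis) for the 10 Kruppel-like factors in the 4 groups, ordered by the vehicle level; lines span the 3 libraries, and an open point marks a group with a library at 0. The order runs from *KLF6* at 44.6 to *KLF15* at 0.156 CPM per kilobase in vehicle-treated cells.

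The promoter of each member was described from RefSeq sequence (GRCh38.p14), over 250 bases before to 50 after each annotated gene start. The table held 14 such windows for 9 members, since some genes have several starts. *KLF10* had no entry. The windows were searched on both strands for the GC box GGGCGG, the CACCC box CCACCC, the clock E box CACGTG and the cyclic AMP response element TGACGTCA, called CRE here. The TCF/LEF letters CTTTGAT or CTTTGTT, the nuclear receptor letters AGGTCA or GGTTCA, and the glucocorticoid receptor letters AGAACA were searched too. None of these motifs contains another. At least 1 GC box stood in 9 of the 14 windows, in 8 of the 9 genes, while 45% of 34961 windows of all genes held one. CACGTG stood in 5 of the 14, in 5 of the 9 genes, against 7.27% of all windows. The CACCC box stood in 2 of the 14 against 34.3% of all windows, and AGAACA in 2 against 14.8%. TCF/LEF letters stood in 2, where CTTTGAT is in 2.63% and CTTTGTT in 5.19% of all windows. Nuclear receptor letters stood in 3, where AGGTCA is in 13.8% and GGTTCA in 8.62%. The shares were not matched for G and C content. These are letter matches and no evidence of binding. The 5 stretches with CACGTG are shown because few windows of other genes hold these letters, each with 20 bases on either side, 5′ to 3′ on the gene's strand, with the E box in capitals:
KLF4, chr9:107489901-107489946: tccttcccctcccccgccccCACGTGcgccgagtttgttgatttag
KLF6, chr10:3785281-3785326: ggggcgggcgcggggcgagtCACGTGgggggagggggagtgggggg
KLF7 (window 4), chr2:207134298-207134343: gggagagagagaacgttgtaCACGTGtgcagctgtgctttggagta
KLF11 (window 1), chr2:10043627-10043672: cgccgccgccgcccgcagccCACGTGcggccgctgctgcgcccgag
KLF15, chr3:126357429-126357474: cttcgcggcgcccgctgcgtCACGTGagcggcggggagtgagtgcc

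Counted from the gene start, the E box began at -157 in *KLF4*, -97 in *KLF6*, -186 in *KLF7*, -182 in *KLF11* and -46 in *KLF15*. *KLF2*, *KLF5*, *KLF9* and *KLF13* had no CACGTG in these windows.

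**Figure D2:**
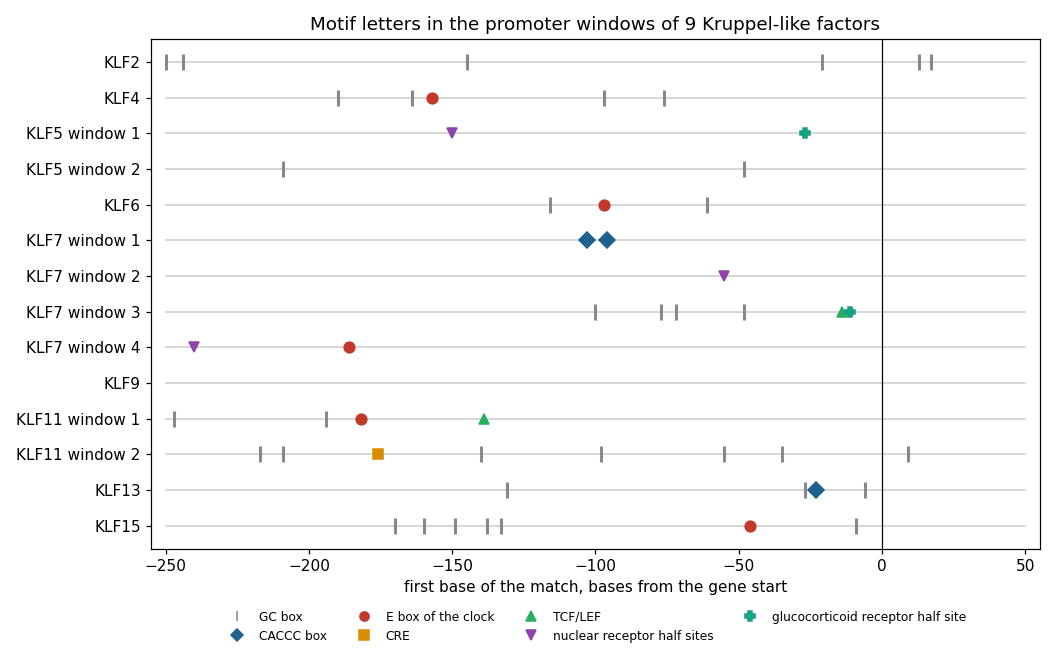
Positions of the motif letters in the 14 promoter windows of 9 Kruppel-like factors, in bases from the gene start (0 line), with 1 row per window and 1 symbol per motif. CACGTG stands in 5 rows, GC boxes stand in 9, and the *KLF9* row is empty.

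The 3 comparisons against vehicle asked what each agent and the pair did after 24 h. All adjusted p values are from edgeR's quasi-likelihood test with Benjamini-Hochberg adjustment over the 12216 genes that passed the filter on low counts, and a gene was called at an adjusted p under 0.05. Of the 10 members 9 passed the filter, and *KLF15* did not. 1,25(OH)2D3 alone changed 2 of the 9, 1 higher (*KLF11*) and 1 lower (*KLF6*), and of all genes tested it changed 14.7%, 8.54% higher and 6.12% lower. Wnt3A alone changed 1, *KLF9*, which fell, where 8.29% of all genes were called, 4.96% higher and 3.33% lower. The combination changed 6, with *KLF7* and *KLF11* higher and *KLF2*, *KLF6*, *KLF9* and *KLF10* lower, against 24% of all genes, 13.3% higher and 10.7% lower. The median log2 fold change of the 9 was -0.11 with 1,25(OH)2D3, -0.16 with Wnt3A and -0.26 with both. Over all genes tested it was 0.001, -0.004 and 0.002. The 3 comparisons share the vehicle libraries. Of all genes tested, 28.7% had no overlap between the 1,25(OH)2D3 and vehicle libraries. The share was 21.8% for Wnt3A and 37.5% for both. In RNA from whole cultures, fewer cells with a transcript and less of it per cell cannot be told apart.

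**Figure D3:**
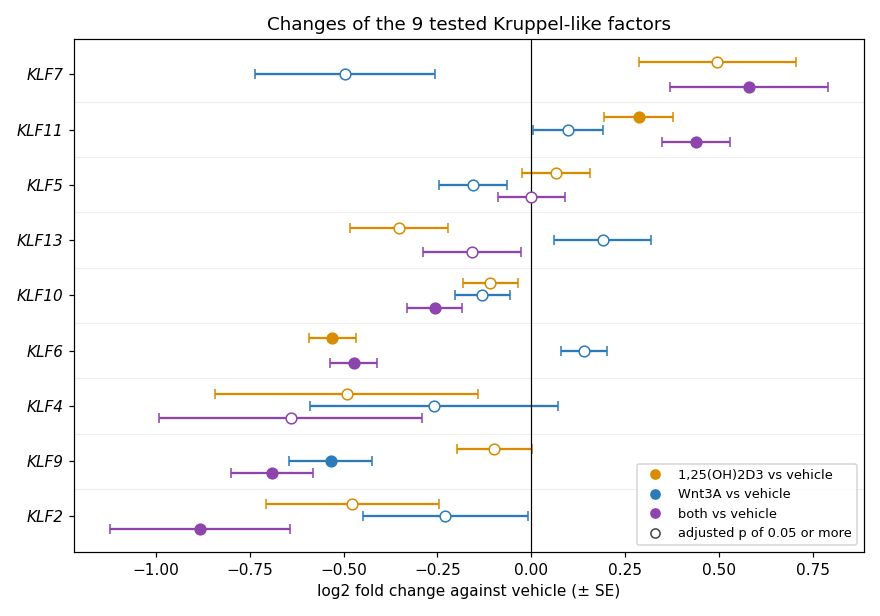
Log2 fold changes (± SE, n = 3 libraries per group) of the 9 tested Kruppel-like factors against vehicle, for 1,25(OH)2D3, Wnt3A and both; filled points passed an adjusted p of 0.05. *KLF6* fell with 1,25(OH)2D3 and with both, *KLF9* fell with Wnt3A and with both, and *KLF5* stayed within 0.16 of 0.

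Libraries with the same number came from 1 experiment. When that number entered the model as a replicate block, *KLF13* was also called with 1,25(OH)2D3, so 3 of 9 members and 24.2% of all genes were called there. The block added or removed no other member in the comparisons against vehicle.

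*KLF6* encodes a broadly expressed factor that was first described as an early response gene and is studied in tissue injury and as a tumour suppressor. Its row spans chr10:3818188-3827473 (GRCh37), on the minus strand, with 4 exons in the canonical transcript. It was at 205, 202 and 207 CPM in the vehicle libraries, 146, 137 and 141 with 1,25(OH)2D3, 210, 231 and 235 with Wnt3A, and 149, 144 and 149 with both. Every library with 1,25(OH)2D3 lay below every library without it, while the Wnt3A libraries lay just above vehicle. The share of all genes separated by 1,25(OH)2D3 over all 12 libraries was not counted. Against vehicle alone, groups did not overlap for 28.7% of all genes tested with 1,25(OH)2D3, 21.8% with Wnt3A and 37.5% with both. The log2 fold change was -0.53 ± 0.063 (SE, adjusted p = 9.66e-07) with 1,25(OH)2D3 and -0.47 ± 0.063 (adjusted p = 2.83e-06) with both, or 0.693 and 0.721 times the vehicle level. In the 3 experiments taken singly the change with 1,25(OH)2D3 was -0.48, -0.56 and -0.55. Against Wnt3A alone, the combination was lower by a log2 fold change of -0.61 ± 0.063 (adjusted p = 8.65e-08). Wnt3A alone gave 0.14 ± 0.062, which did not pass the adjustment (adjusted p = 0.209). Leaving out any 1 of the 12 libraries kept the fall with 1,25(OH)2D3 between -0.56 and -0.51, with an adjusted p of 3e-05 at most. The summed level of 4 smooth muscle markers moved in the same direction. It was 162 to 184 CPM without and 125 to 153 CPM with 1,25(OH)2D3, almost all of it *SMTN*. *DES* had 3 and *MYH11* 43 reads in the 12 libraries, and the 4 markers were not compared singly. The part of these markers in the change of *KLF6* was not tested.

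The bases just before the *KLF6* start are shown beside those of *KLF9* below, the member that fell with the other agent, from 150 bases before the start to the base next to it, with GC boxes in capitals on either strand:
KLF6, chr10:3785210-3785359: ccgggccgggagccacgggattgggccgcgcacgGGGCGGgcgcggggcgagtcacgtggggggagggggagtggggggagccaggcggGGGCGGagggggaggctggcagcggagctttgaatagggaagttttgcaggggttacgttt
KLF9, chr9:70414658-70414807: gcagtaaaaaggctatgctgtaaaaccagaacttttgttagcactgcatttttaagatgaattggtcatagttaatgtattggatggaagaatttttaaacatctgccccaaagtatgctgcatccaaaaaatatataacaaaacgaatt

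The *KLF6* window was rich in G and C, at 70.7%, above 81.9% of all windows. The *KLF9* window held 32.7%, which placed it at the 2.59 percentile, and no listed motif was found in it.

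*KLF2* encodes a factor best known in endothelium, where shear stress raises it through the kinase ERK5 and MEF2 factors. Its row spans chr19:16435651-16438339 on the plus strand. The gene was low, with 14 to 36 reads per library. Its levels were 5.39, 4.8 and 5.99 CPM with vehicle, 3.24, 3.69 and 4.71 with 1,25(OH)2D3, 5.38, 4.2 and 4.16 with Wnt3A, and 2.58, 2.54 and 3.58 with both. The groups with 1,25(OH)2D3 and with both did not overlap vehicle, as for 28.7% and 37.5% of all genes tested, and Wnt3A did. Only the combination was called among the comparisons against vehicle, with a log2 fold change of -0.88 ± 0.24 (adjusted p = 0.00771), 0.542 times the vehicle level. The values for the single agents were -0.48 ± 0.23 (adjusted p = 0.175) with 1,25(OH)2D3 and -0.23 ± 0.22 (adjusted p = 0.676) with Wnt3A. Within experiments the change was -0.68, -0.35 and -0.33 with 1,25(OH)2D3, and with Wnt3A it was -0.003, -0.18 and -0.49, so the first experiment showed none with Wnt3A.

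*KLF4* encodes one of the reprogramming factors and a regulator of epithelial and smooth muscle differentiation. Its row spans chr9:110247133-110252047 on the minus strand, and its exons overlap an unnamed long noncoding RNA on the other strand over 277 bases. It had 7 to 21 reads per library. The levels were 3.65, 2.72 and 1.83 CPM with vehicle, 2.56, 1.48 and 1.7 with 1,25(OH)2D3, 1.79, 2.92 and 2.16 with Wnt3A, and 2.58, 1.59 and 1.14 with both. All groups overlapped vehicle. The log2 fold changes of -0.49 ± 0.35, -0.26 ± 0.33 and -0.64 ± 0.35 were not called (adjusted p = 0.395, 0.778 and 0.199). For the combination the 95% interval ran from -1.37 to 0.09, which holds both no change and the fall seen for *KLF2*, so no difference was detectable at this depth.

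*KLF7* encodes a broadly expressed factor known from axon growth in mice and from fat cell precursors. Its row spans chr2:207945529-208030614 on the minus strand and holds the row of the microRNA gene *MIR2355*, 87 bases long. The levels were 3.83, 6.72 and 6.65 CPM with vehicle, 8.54, 7.2 and 8.67 with 1,25(OH)2D3, 5.05, 4.2 and 2.99 with Wnt3A, and 9.78, 8.42 and 7.81 with both. All 6 libraries with 1,25(OH)2D3 lay above all 6 without it, while Wnt3A and vehicle overlapped. The share of all genes separated in this way was not counted. Against vehicle alone, groups did not overlap for 28.7% of all genes tested with 1,25(OH)2D3 and 37.5% with both. The combination was 1.5-fold above vehicle, a log2 fold change of 0.58 ± 0.21 (adjusted p = 0.0419). This call was lost without vehicle replicate 1, without combination replicate 1 and without combination replicate 2, where the log2 fold change lay between 0.37 and 0.71 over all left-out libraries and the adjusted p reached 0.22. DESeq2 gave an adjusted p of 0.13. These fits had no replicate block, and with the block the adjusted p was 0.0177. Against Wnt3A alone the combination was 2.11-fold higher, at 1.08 ± 0.22 (adjusted p = 0.00146), with changes of 0.91, 0.95 and 1.29 in the 3 experiments, and this was called without any 1 library. The values were 0.50 ± 0.21 (adjusted p = 0.122) with 1,25(OH)2D3 alone and -0.50 ± 0.24 (adjusted p = 0.277) with Wnt3A alone.

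*KLF5* encodes a factor that promotes proliferation of intestinal crypt cells and remodelling in fibroblasts and smooth muscle. Its row spans chr13:73633142-73651676 on the plus strand. It was at 38.4, 44.2 and 41.8 CPM with vehicle, 43, 46.9 and 40.3 with 1,25(OH)2D3, 35.9, 38.3 and 37.6 with Wnt3A, and 42.1, 43.7 and 38.7 with both. It was called in no comparison. The combination gave a log2 fold change of 0.00 with a 95% interval from -0.18 to 0.18, which leaves room for a change of about 0.18 either way. With 1,25(OH)2D3 the interval was -0.12 to 0.25 and with Wnt3A -0.34 to 0.03.

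Among the SIN3A-binding members, *KLF9* was lower with Wnt3A, *KLF11* was higher with 1,25(OH)2D3, and *KLF10* was called with the combination alone. *KLF9* encodes a repressor that glucocorticoids and thyroid hormone induce and that is also an output of the circadian clock. Its row spans chr9:72999513-73029573 on the minus strand, with 2 exons. It was at 24.9, 26.9 and 24 CPM with vehicle and 25.1, 23.1 and 22.4 with 1,25(OH)2D3. With Wnt3A it was at 17.8, 17.7 and 16.8, and with both at 17, 15.6 and 14.5. All 6 libraries with Wnt3A lay below all 6 without it. The share of all genes separated in this way was not counted. Against vehicle alone, groups did not overlap for 21.8% of all genes tested with Wnt3A and 37.5% with both. The log2 fold change was -0.54 ± 0.11 (adjusted p = 0.00162) with Wnt3A and -0.69 ± 0.11 (adjusted p = 3.94e-05) with both, 0.69 and 0.619 times the vehicle level. Against 1,25(OH)2D3 alone the combination was lower by -0.59 ± 0.11 (adjusted p = 0.000733). 1,25(OH)2D3 alone gave -0.10 ± 0.1, with a 95% interval from -0.32 to 0.12. All 3 falls were called without any 1 of the 12 libraries.

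*KLF11* encodes TGF-β-inducible early factor TIEG2, a repressor studied in the pancreas and in metabolism. Its row spans chr2:10183682-10194963 on the plus strand, and its exons overlap an unnamed long noncoding RNA on the other strand over 416 bases. It was at 27.8, 28 and 28.6 CPM with vehicle, 34.8, 34.7 and 33.4 with 1,25(OH)2D3, 30.3, 31 and 29.1 with Wnt3A, and 41.3, 37.8 and 35.6 with both. None of the 3 treated groups overlapped vehicle, and the combination lay highest. Such separation held for 28.7% of all genes tested with 1,25(OH)2D3, 21.8% with Wnt3A and 37.5% with both. Wnt3A alone gave a log2 fold change of 0.10 ± 0.094, which was not called (adjusted p = 0.679). The log2 fold change was 0.44 ± 0.091 (adjusted p = 0.000737) with both and 0.34 ± 0.09 (adjusted p = 0.0113) for the combination against Wnt3A alone. With 1,25(OH)2D3 alone it was 0.29 ± 0.093 (adjusted p = 0.0392), a call kept in only 2 of the 12 fits with a library left out. DESeq2 gave an adjusted p of 0.16. These fits had no replicate block, and with the block the adjusted p was 0.0195. The size hardly moved between the fits with a library left out, from 0.27 to 0.30. Without Wnt3A replicate 3, or without combination replicate 1, the comparison with Wnt3A alone reached an adjusted p of 0.058 at most.

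Window 2 of *KLF11* held the only CRE of the 14, against 1.85% of all windows, at position -176 from the start. It is shown with 20 bases on either side and the CRE in capitals, for comparison with the E box of window 1 above:
KLF11 (window 2), chr2:10044025-10044072: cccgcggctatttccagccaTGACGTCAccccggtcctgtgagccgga

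*KLF10* encodes TGF-β-inducible early factor TIEG1. Its row spans chr8:103661005-103667983 on the minus strand. It was at 84.9, 88.8 and 85.2 CPM with vehicle, 75.8, 76.3 and 88.2 with 1,25(OH)2D3, 79.5, 78.3 and 78.6 with Wnt3A, and 70.6, 71.6 and 74.2 with both. Only the third 1,25(OH)2D3 library reached the vehicle range. The Wnt3A and combination libraries did not overlap vehicle, as for 21.8% and 37.5% of all genes tested. The combination gave a log2 fold change of -0.26 ± 0.073 (adjusted p = 0.011), 0.837 times the vehicle level, the smallest change called against vehicle among the members. Without combination replicate 1 the adjusted p was 0.05 and the call was lost. With all libraries and the replicate block the adjusted p was 0.00184. The single agents gave -0.11 ± 0.073 (adjusted p = 0.359) and -0.13 ± 0.073 (adjusted p = 0.373).

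*KLF13* encodes a broadly expressed factor first described in T cells as an activator of the chemokine gene *CCL5*. Its row spans chr15:31619083-31670102 on the plus strand and lies within the span of the *FAM7A3* row, which is 0 in every library. It was at 74.8, 66.7 and 75.9 CPM with vehicle, 69.7, 44.3 and 55.6 with 1,25(OH)2D3, 91.9, 77.8 and 78 with Wnt3A, and 74.3, 61.9 and 58.9 with both. The first experiment was the highest of its group in 3 of the 4 groups. Within experiments, 1,25(OH)2D3 went with a lower level each time, by -0.10, -0.59 and -0.45 without Wnt3A and by -0.31, -0.33 and -0.40 with it. Without the block neither was called, at -0.35 ± 0.13 (adjusted p = 0.0864) and -0.35 ± 0.13 (adjusted p = 0.0851). With the replicate block both were, at -0.36 ± 0.079 (adjusted p = 0.000327) and -0.34 ± 0.075 (adjusted p = 0.000377). In the fit without the block the change with 1,25(OH)2D3 alone depended on single libraries. It was -0.54 (adjusted p = 0.0031) without 1,25(OH)2D3 replicate 1 and -0.21 (adjusted p = 0.29) without 1,25(OH)2D3 replicate 2, and it was called in 1 of the 12 fits with a library left out. The comparison with Wnt3A alone was called in 3 of 12, at -0.44 to -0.25.

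*KLF15* encodes a factor of amino acid and glucose metabolism that glucocorticoids induce in muscle and other tissues. Its row spans chr3:126061478-126076236 on the minus strand. The 3 libraries of each group together held 7 reads with vehicle, 5 with 1,25(OH)2D3, 4 with Wnt3A and 4 with both. The exact 95% Poisson intervals, 2.81 to 14.4 for 7 reads and 1.09 to 10.2 for 4, overlap widely and cover counting error only. No difference was detectable at this depth.

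**Figure D4:**
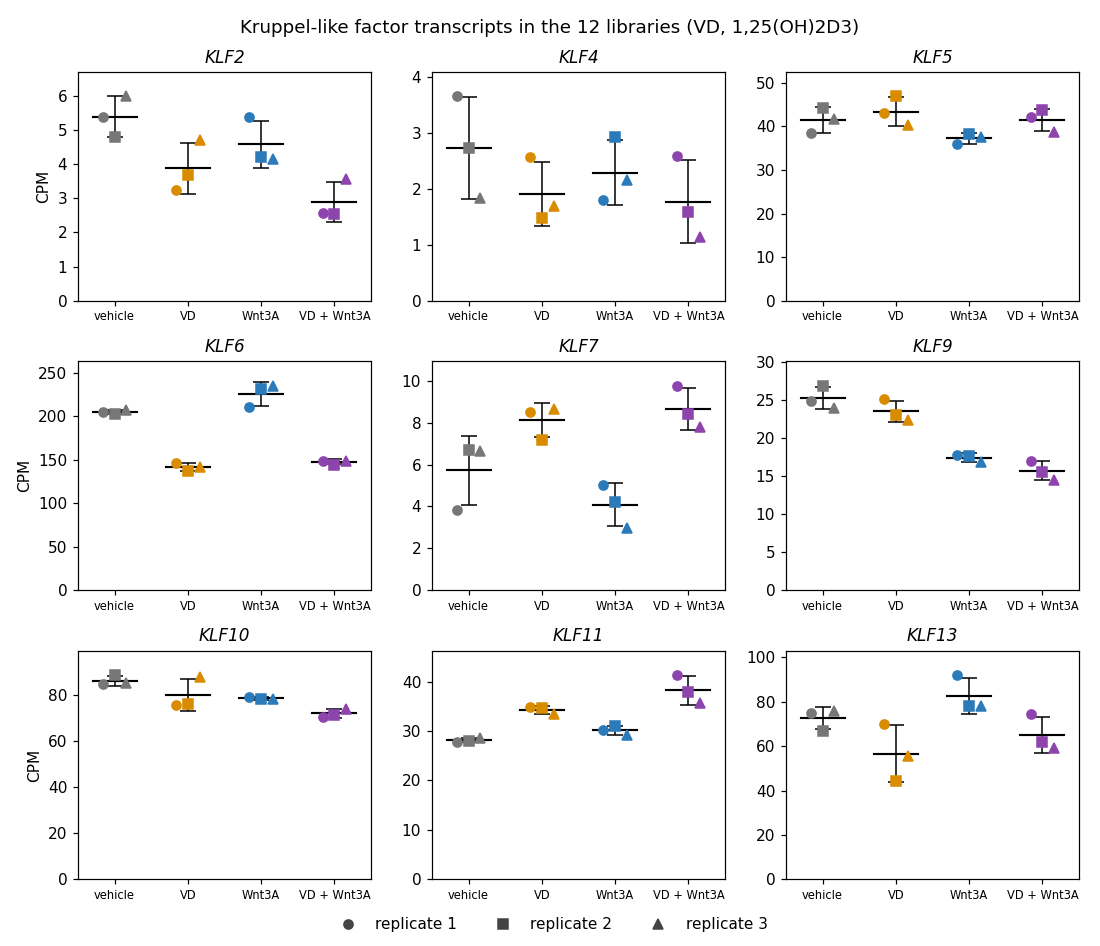
CPM of the 9 tested Kruppel-like factors in the 12 libraries (linear axes from 0; symbols, replicates 1 to 3; horizontal lines and bars, mean ± SD, n = 3; VD, 1,25(OH)2D3). *KLF6* separates by 1,25(OH)2D3 (137 to 149 CPM with, 202 to 235 without), *KLF9* separates by Wnt3A (14.5 to 17.8 with, 22.4 to 26.9 without), and *KLF7* separates by 1,25(OH)2D3 at a low level. The share of all genes with such a separation over the 12 libraries was not counted.

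The effect of each agent was next compared in the absence and presence of the other. These pairs of comparisons share no library. 1,25(OH)2D3 on top of Wnt3A changed 3 of the 9 members, with *KLF7* and *KLF11* higher and *KLF6* lower, against 13.4% of all genes, 7.54% higher and 5.9% lower. With the replicate block *KLF13* made 4, against 22% of all genes. Wnt3A on top of 1,25(OH)2D3 changed *KLF9* alone, where 9.23% of all genes were called, 5.2% higher and 4.03% lower. The sign of the 1,25(OH)2D3 effect was the same with and without Wnt3A for all 9 members. The Wnt3A effect had the same sign in 8 of the 9. The share of all genes that kept their sign was not counted, so these counts do not set the members apart. The exception for Wnt3A was *KLF7*, at -0.50 ± 0.24 without and 0.08 ± 0.2 with 1,25(OH)2D3, and neither value was called.

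The interaction is how far the combination departed from the added log2 changes of both agents. It was called for no member. edgeR called 0% of all genes for it, with 354 at an unadjusted p under 0.05, and DESeq2 called 0 too. With the replicate block 18 genes (0.147%) were called and no member was among them. For *KLF6* the interaction was -0.08 with a 95% interval of -0.27 to 0.10, and for *KLF9* it was -0.06 with an interval of -0.38 to 0.27. For *KLF7* it was 0.58 ± 0.31 with an interval of -0.06 to 1.22 (adjusted p = 1), wide enough to hold no interaction or one as large as the effects themselves. These intervals, from the fit without the block, give the size of departure that each gene could still hold. With the replicate block they ran from -0.24 to 0.07 for *KLF6*, -0.37 to 0.26 for *KLF9* and -0.02 to 1.18 for *KLF7*.

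**Figure D5:**
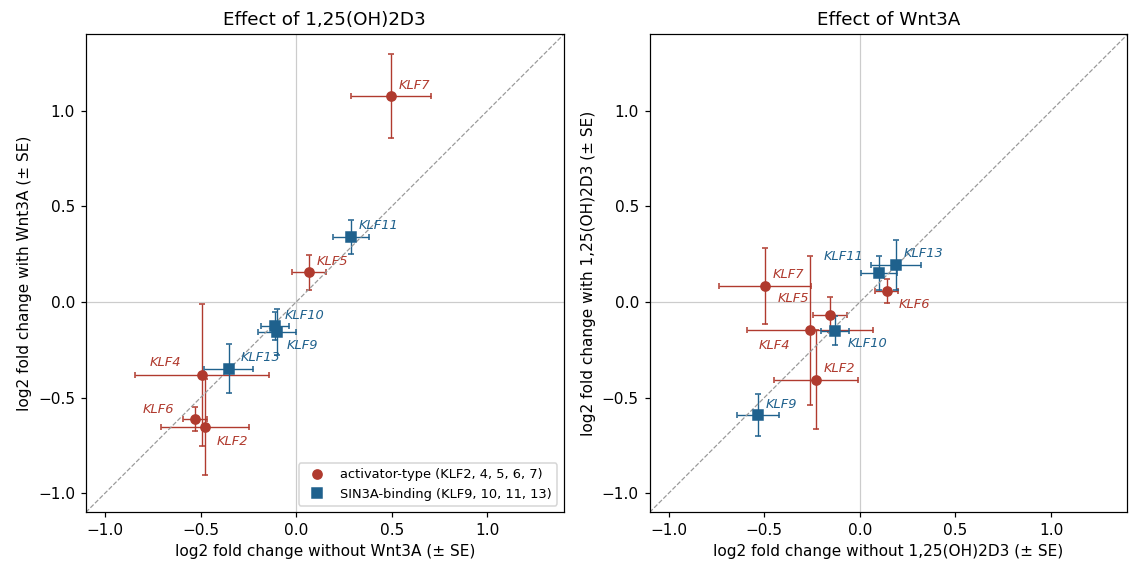
Log2 fold change (± SE) of each tested Kruppel-like factor for 1,25(OH)2D3 without against with Wnt3A (left) and for Wnt3A without against with 1,25(OH)2D3 (right); the dashed line marks equal effects. *KLF6* (-0.53 and -0.61) and *KLF9* (-0.54 and -0.59) lie close to the line in the panel of the agent that moved them, and *KLF7* lies farthest from it in both panels.

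The average effect of each agent over both backgrounds was added after the values had been seen, in the same fit. For 1,25(OH)2D3 it was called for 5 of the 9 members, against 26.9% of all genes, 14.2% higher and 12.8% lower. *KLF7* (0.79 ± 0.15, adjusted p = 0.000354) and *KLF11* (0.31 ± 0.065, adjusted p = 0.000632) rose. *KLF6* fell (-0.57 ± 0.045, adjusted p = 2.12e-10), as did *KLF2* (-0.57 ± 0.17, adjusted p = 0.0136) and *KLF13* (-0.35 ± 0.091, adjusted p = 0.00886). The *KLF2* call was lost without Wnt3A replicate 1 (adjusted p = 0.05) and with DESeq2 (adjusted p = 0.075). It was kept with the replicate block (adjusted p = 0.0068). With the replicate block *KLF10* made 6 (-0.12 ± 0.048, adjusted p = 0.0448), against 36.6% of all genes. For Wnt3A the average effect was called for *KLF9* alone (-0.56 ± 0.079, adjusted p = 6.21e-06), against 15.8% of all genes, 8.77% higher and 7.06% lower. With the block *KLF10* (-0.14 ± 0.048, adjusted p = 0.0257) and *KLF13* (0.19 ± 0.054, adjusted p = 0.00544) made 3, against 22.7% of all genes. By these averages the activating and the SIN3A-binding group each held members that rose and members that fell.

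The rest of the KLF and SP family has 16 genes in the table, 8 of which passed the filter. With 1,25(OH)2D3 1 rose, with Wnt3A 0 were called, and with both 3 rose and 1 fell. In the blocked fit 2 rose with 1,25(OH)2D3, 1 rose with Wnt3A, and 4 rose and 1 fell with both. The median log2 fold change of the 8 was 0.13, 0.02 and 0.16 in the same order. *SP1*, the archetypal GC-box activator, rose with 1,25(OH)2D3 (0.39 ± 0.089, adjusted p = 0.00342) and with both (0.28 ± 0.089, adjusted p = 0.0261). *SP4* (0.73 ± 0.26, adjusted p = 0.0428) and the repressor gene *KLF8* (0.48 ± 0.14, adjusted p = 0.0135) rose with both. *KLF3*, a CTBP-binding repressor gene, fell with both (-0.31 ± 0.09, adjusted p = 0.0127).

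Of 13 corepressors and coactivators that KLFs bind, all were tested, and 1 was called with both agents (4 with the replicate block), *RBBP4* (0.34 ± 0.081, adjusted p = 0.00262), a histone-binding subunit of the SIN3 complex. *SIN3A* itself was at 0.16 ± 0.085 with 1,25(OH)2D3 and 0.00 ± 0.085 with Wnt3A, neither called. The list's medians were 0.00, 0.03 and 0.04. Of the 6 ubiquitin ligases described for KLF proteins, 3 rose with 1,25(OH)2D3, 1 rose and 2 fell with Wnt3A, and 2 rose and 2 fell with both, with medians of 0.19, -0.05 and 0.14. *WWP1*, a ligase for KLF2 and KLF5, rose with 1,25(OH)2D3 (0.40 ± 0.098, adjusted p = 0.00566), with Wnt3A (0.40 ± 0.098, adjusted p = 0.00873) and with both (0.81 ± 0.095, adjusted p = 4.11e-07). *FBXW7*, the substrate receptor of another KLF2 and KLF5 ligase, rose with 1,25(OH)2D3 (0.36 ± 0.1, adjusted p = 0.0183) and with both (0.48 ± 0.1, adjusted p = 0.000974). *SMURF1* and *BTRC* fell with Wnt3A (-0.24 ± 0.072 and -0.31 ± 0.073) and with both (-0.40 ± 0.072 and -0.28 ± 0.073). These are transcript levels, and the amounts of the KLF proteins were not measured.

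Upstream of *KLF2* and *KLF4*, 7 of 8 genes of the ERK5 and MEF2 list were tested, and 1 fell with 1,25(OH)2D3 (2 with the replicate block), 1 rose with Wnt3A, and 1 rose and 2 fell with both. Their medians were 0.08, 0.06 and 0.07. *MEF2D* fell with 1,25(OH)2D3 (-0.45 ± 0.094, adjusted p = 0.0013) and with both (-0.53 ± 0.093, adjusted p = 0.00013), as *KLF2* did with both. *MEF2C* rose with Wnt3A (0.89 ± 0.13, adjusted p = 2.99e-05) and was at 0.07 ± 0.14 with both. *MEF2A* fell (-0.23 ± 0.076, adjusted p = 0.0267) and *MAPK7*, the ERK5 gene, rose with both (0.31 ± 0.11, adjusted p = 0.0404). Among 18 tested immediate early genes, the serum-responsive class in which *KLF6* and *KLF10* are often placed, 2 rose and 6 fell with 1,25(OH)2D3, 1 rose and 2 fell with Wnt3A, and 2 rose and 8 fell with both. The median log2 fold change of the list was -0.20, -0.09 and -0.41. With the replicate block 2 rose and 7 fell with 1,25(OH)2D3, 1 and 3 with Wnt3A, and 2 and 12 with both. *IER3* fell with 1,25(OH)2D3 (-0.84 ± 0.13, adjusted p = 5.78e-05) and *FOSB* fell with each agent (-1.01 ± 0.23 and -0.75 ± 0.22), whereas *ZFP36* rose with 1,25(OH)2D3 (0.93 ± 0.11, adjusted p = 1.22e-06) and *FOSL2* with each agent (0.81 ± 0.12 and 0.64 ± 0.12).

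*KLF9* belongs to the outputs of the glucocorticoid receptor and of the clock, and both lists were read beside it. Of 10 tested genes of the glucocorticoid list, 1 rose and 3 fell with Wnt3A, 2 rose and 0 fell with 1,25(OH)2D3 (2 and 2 with the replicate block), and 1 rose and 4 fell with both (1 and 6 with the block). With Wnt3A the block gave 1 that rose and 4 that fell. The medians were -0.03 with 1,25(OH)2D3, -0.18 with Wnt3A and -0.29 with both. *ANGPTL4* (-1.33 ± 0.17, adjusted p = 8.93e-06) and *SGK1* (-0.66 ± 0.12, adjusted p = 0.000413) fell with Wnt3A as *KLF9* did, while *FKBP5*, another receptor target, rose (0.38 ± 0.098, adjusted p = 0.0126). *TSC22D3* rose with 1,25(OH)2D3 (0.59 ± 0.096, adjusted p = 8.18e-05). Of 18 tested clock genes, 1 rose with Wnt3A, *RORA* (1.35 ± 0.1, adjusted p = 1.01e-09), 3 rose and 1 fell with 1,25(OH)2D3, and 3 rose and 4 fell with both. Under the replicate block 3 rose and 1 fell with Wnt3A, and 4 rose and 5 fell with both. The medians were 0.03 with 1,25(OH)2D3, 0.07 with Wnt3A and 0.05 with both. *BHLHE40* (0.37 ± 0.075, adjusted p = 0.000926) and *PER2* (0.51 ± 0.14, adjusted p = 0.0138) rose with 1,25(OH)2D3. *ARNTL2* fell with both (-0.38 ± 0.095, adjusted p = 0.00476). A single time of 24 h does not show the phase of a rhythm.

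*KLF10* and *KLF11* are TGF-β early genes by name, and the 12 other genes of that response were all tested. 2 rose and 2 fell with 1,25(OH)2D3, 0 were called with Wnt3A, and 1 rose and 4 fell with both. With the replicate block these were 4 and 3 with 1,25(OH)2D3, 1 and 3 with Wnt3A, and 2 and 4 with both. The medians were 0.07, -0.09 and -0.11. *TGFB1*, which encodes the ligand itself, fell with 1,25(OH)2D3 (-0.39 ± 0.099, adjusted p = 0.0111), and *SKIL* (0.51 ± 0.1, adjusted p = 0.00115) and *BAMBI* (0.68 ± 0.16, adjusted p = 0.0184), both feedback inhibitors, rose. In the same comparison *KLF11* was at 0.29 ± 0.093 and *KLF10* at -0.11 ± 0.073, and the difference between them was not tested.

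Genes described elsewhere as KLF targets were split too. Of 9 tested targets of *KLF2* or *KLF4*, 2 rose and 2 fell with 1,25(OH)2D3, 2 fell with Wnt3A, and 2 rose and 2 fell with both, with medians of -0.04, 0.03 and 0.14. The blocked fit gave 3 and 3 with 1,25(OH)2D3, 2 and 2 with Wnt3A, and 5 and 3 with both. *THBD* is the thrombomodulin gene that KLF2 activates in endothelium, and the study lists it among known 1,25(OH)2D3 targets of other cell types. It rose by a log2 fold change of 3.42 ± 0.12 (adjusted p = 1.13e-16) with 1,25(OH)2D3 and 2.92 ± 0.12 (adjusted p = 1.04e-14) with both. *KLF2* itself fell with both, and its part in the change of *THBD* was not tested. Of 9 tested targets of *KLF5*, *KLF6* or *KLF7*, 2 rose and 3 fell with 1,25(OH)2D3, 2 fell with Wnt3A, and 1 rose and 4 fell with both, with medians of -0.18, -0.05 and -0.21. The blocked fit gave 2 and 4 with 1,25(OH)2D3, 1 and 2 with Wnt3A, and 1 and 4 with both. *CCND1*, the cyclin D1 gene (-0.48 ± 0.061, adjusted p = 2.45e-06), and *ENG*, a TGF-β coreceptor gene that KLF6 activates in endothelium (-0.23 ± 0.07, adjusted p = 0.0286), fell as *KLF6* did. *COL1A1*, also described as a KLF6 target, rose (0.56 ± 0.075, adjusted p = 5.13e-06). Of 9 tested targets of *KLF9*, *KLF10*, *KLF11*, *KLF13* or *KLF15*, 2 rose with 1,25(OH)2D3 (3 rose and 1 fell with the replicate block), 1 rose and 1 fell with Wnt3A, and 2 rose and 1 fell with both, with medians of 0.01, 0.09 and 0.20. The block gave 1 and 2 with Wnt3A, and 3 and 1 with both. *NFE2L2* rose with 1,25(OH)2D3 (0.77 ± 0.068, adjusted p = 6.71e-09) and fell with Wnt3A (-0.64 ± 0.069, adjusted p = 5.03e-07), and the muscle atrophy gene *FBXO32* rose with 1,25(OH)2D3 (0.92 ± 0.28, adjusted p = 0.0293). The counts in these lists can be read against the 14.7% of all genes called with 1,25(OH)2D3, 8.29% with Wnt3A and 24% with both. The counts under the replicate block are to be read against 24.2%, 13.5% and 33.4% in the same order. No list was tested as a set.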

How the data were processed

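The authors sequenced stranded polyA+ RNA with single reads of 40 bases, aligned them to GRCh37/hg19 with ELAND in CASAVA 1.8 (named in the submitters' processing notes) and deposited counts, 1 whole number per gene and library. The program that summed them, its annotation and whether it used strand were not stated in these sources, so overlapping genes on opposite strands may share reads. Over 1711 low genes (mean, 1 to 5 reads) the median ratio of within-group variance to mean was 38.4 as deposited and 0.97 once divided by 40. Read equivalents were tested with edgeR 4.0.16 in R 4.3.3 (TMM, robust quasi-likelihood fit of all 12 libraries without a block), after filterByExpr with a minimum count of 10. Fold changes used edgeR's prior count of 0.125 and log2 CPM a prior count of 2. DESeq2 1.42.0, the tool of the study, was an alternative, as were a replicate block, RLE scaling, other filters, undivided values, a fit of each comparison's groups alone, 0.01 as the threshold, and fits lacking 1 library. DESeq2 here, without the block, called 1314 genes with 1,25(OH)2D3, 791 with Wnt3A and 2234 with both. The study reported more genes in each comparison, so the DESeq2 values given here are not those of the study. The reason for the gap was not tested. The test was run on simulated counts that held no experiment effect. That check therefore does not cover the pairing of libraries described below.

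The members and gene lists were chosen with earlier results of these data known. Every member is named. Up to 4 genes are named per list, by the smallest p against vehicle, and *CYP24A1* and *AXIN2* as the response check. The values of 1 gene that this rule names are not reported here. The 28 rows that repeat a gene name were kept as rows of their own. The study numbers the experiments 1 to 3 in each group. Over 9477 genes averaging 10 CPM or more, after group means were removed, the 18 same-numbered pairs of libraries had correlations of 0.154 to 0.427 and the 36 others of -0.314 to -0.00401, and all 12 libraries correlated best with their own number, so the numbers pair the samples. P values measure the spread between cultures of 1 line. With 5363668 to 6261100 reads per library, *KLF2*, *KLF4* and *KLF7* rest on 7 to 53 reads each, and *KLF15* on 4 to 7 reads per group of 3 libraries.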

Additional observations from a re-analysis of the deposited data

How the results depend on the processing

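No alternative that was run reversed a direction. For single genes, changes with a library left out were followed only where the main or the blocked fit made a call. The averages added later were followed only for such calls in every alternative. 1,25(OH)2D3 changed 2 members, and 1 (*KLF6*) at a threshold of 0.01, with DESeq2 and in the fit of its 2 groups alone. With 1 library left out the counts were 1 to 2 for 1,25(OH)2D3, 1 for Wnt3A, 4 to 6 for both, 2 to 4 for both against Wnt3A and 1 to 2 for both against 1,25(OH)2D3, and the interaction stayed at 0. The 4 came without combination replicate 1, where *KLF7* and *KLF10* lost their calls. For the averages added later the range was 5 to 6 for 1,25(OH)2D3 and 1 to 2 for Wnt3A. The Wnt3A average was called for 2 members without a count filter and for 3 with the replicate block. Beyond the calls given with each gene, the block changed none. Over all genes it raised the calls from 1791 to 2959 with 1,25(OH)2D3, from 1013 to 1655 with Wnt3A, from 1642 to 2685 for both against Wnt3A and from 1127 to 1812 for both against 1,25(OH)2D3. *KLF13* was also called for both against Wnt3A in the fit of those 2 groups alone (adjusted p = 0.0071) and, in both tests of 1,25(OH)2D3, without a count filter (adjusted p = 0.0014 and 0.0013). *KLF7* with both missed the threshold with undivided values (adjusted p = 0.067) and in its 2 groups alone (adjusted p = 0.058), and *KLF11* for both against Wnt3A missed it with DESeq2 (adjusted p = 0.061). The cause of these changes was not tested. At this depth *KLF4* had 7 to 21 reads per library and *KLF15* too few to test.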

Other observations

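The genes whose level followed a called member most closely over the 12 libraries were taken by Pearson's r of log2 CPM, 2 per member, as a description. The 12 libraries share the same 4 treatments, so any pair of genes that answers them alike has a high r. *KLF6* was followed by *ESYT1* (r = 0.981) and *CCND1* (r = 0.976), which fell with 1,25(OH)2D3 by log2 fold changes of -0.39 ± 0.062 (adjusted p = 6.01e-05) and -0.48 ± 0.061 (adjusted p = 2.45e-06). *KLF9* was followed by *CMKLR1* (r = 0.98), the chemerin receptor gene, and *NPTX1* (r = 0.97), which fell further than *KLF9* with Wnt3A, by -1.33 ± 0.11 (adjusted p = 1.09e-08) and -0.80 ± 0.1 (adjusted p = 9.04e-06).

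*KLF11* was followed by *INSIG1* (r = 0.973), a sterol-regulated brake on cholesterol synthesis, and *APPL2* (r = 0.968). Both rose most with the combination, by 0.92 ± 0.069 (adjusted p = 1.71e-10) and 0.95 ± 0.075 (adjusted p = 4.7e-10). *KLF7* was followed by the cholesterol exporter gene *ABCA1* (r = 0.945) and by *PELI2* (r = 0.934). *ABCA1* rose with 1,25(OH)2D3 (0.67 ± 0.12, adjusted p = 0.000243) and fell with Wnt3A (-0.69 ± 0.14, adjusted p = 0.00128), the directions in which *KLF7* lay without being called for either agent alone. *KLF2* was followed by *GAS6* (r = 0.955) and *LRP10* (r = 0.95), and *KLF10* by *DHX16* (r = 0.912) and *GPR56* (r = 0.902). Of these 4, *GPR56* changed most with both agents, by -1.33 ± 0.22 (adjusted p = 7.72e-05).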
